A study of Mus musculus with 24 samples.

Results

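The Cyp3a family was followed through 24 libraries of mouse liver RNA. Its members were chosen by symbol alone: the 8 genes of the deposited tables whose symbols are Cyp3a11, Cyp3a13, Cyp3a16, Cyp3a25, Cyp3a41a, Cyp3a44, Cyp3a57 and Cyp3a59, out of 24339 genes in all. Each table held 9 entries for these 8 symbols, and the 2 entries named Cyp3a41a were summed. Levels are given in FPKM, fragment counts scaled by transcript length and by library size, a unit per length that allows genes to be set side by side.

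The libraries came from the C57BL/6 strain and formed 8 groups of 3. Wild type mice received corn oil or TCPOBOP, an agonist of mouse CAR (the constitutive androstane receptor, product of Nr1i3), at postnatal day 5 or day 60. hCAR-TG mice, in which human CAR was knocked in, received corn oil or CITCO, an agonist of human CAR, at the same ages. Receptor and ligand therefore always differed together, and their parts in a difference cannot be told apart. The labels give no dose, do not name the sex, do not say what drives the human receptor, and do not say whether replicates were separate animals, so p-values here reflect variation among these libraries, which may be technical.

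CYP3A enzymes are haem-containing monooxygenases of the endoplasmic reticulum that oxidise many drugs, steroid hormones and bile acids, and they draw electrons from the reductase encoded by Por. In liver they are classic targets of the nuclear receptors PXR (Nr1i2) and CAR, which bind pairs of short half-sites in regulatory DNA as partners of RXR. Cyp3a11 is the main member in adult mouse liver and a common readout of PXR activity. Cyp3a16 is known as a perinatal form, and Cyp3a41 and Cyp3a44 as forms that are more abundant in adult females than in adult males.

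All 8 genes are protein coding and lie on mouse chromosome 5 (mm10). Cyp3a13 stands apart at chr5:137892933-137921619 on the minus strand. The others form a cluster that runs from Cyp3a57 (chr5:145345270-145390512, plus strand) through Cyp3a16 (chr5:145436309-145469723), the 2 entries named Cyp3a41a, Cyp3a44 (chr5:145773983-145805874), Cyp3a11 (chr5:145854607-145879854) and Cyp3a25 (chr5:145977194-146009618), all on the minus strand, to Cyp3a59 (chr5:146079258-146113283, plus strand). Of the entries named Cyp3a41a, the one at chr5:145694049-145720136 is Cyp3a41a in the GENCODE M21 and RefSeq annotations of this build, while the one at chr5:145558664-145584730 is Cyp3a41b there. The second supplied 44.3% to 50.5% of the sum (median 47.3% over 24 libraries), so the value called Cyp3a41a below is that of both genes.

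How far the genes can be told apart by short reads was measured on the GENCODE M21 transcripts, as the percent of all 50-base windows of a gene that occur without mismatch in another. Cyp3a41a and Cyp3a41b shared 93.7% and were 99.9% identical in coding sequence. Cyp3a25 and Cyp3a59 shared 24% and were 97.5% identical. Cyp3a16, Cyp3a41a and Cyp3a44 shared 6.1%, 7.2% and 7.0% of their windows with Cyp3a11, to which their coding sequences were 92.8% to 95.2% identical. Cyp3a13 shared no window with any other member. Over windows of 100 bases the shares were lower. Cyp3a41a shared 88.4% with Cyp3a41b, and Cyp3a25 shared 5.3% with Cyp3a59. Cyp3a16, Cyp3a41a and Cyp3a44 shared 0.1%, 0.0% and 0.3% with Cyp3a11. The values of single members other than Cyp3a13 are therefore uncertain to an extent that depends on how the authors' program divided shared reads, and this was not tested.

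**Figure D1:**
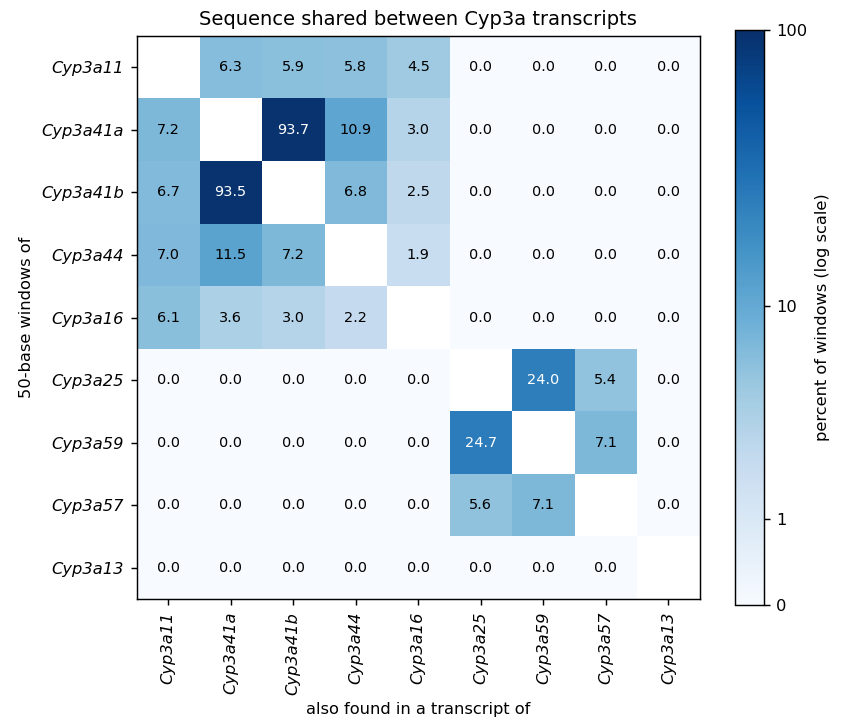
Percent of the 50-base windows of each Cyp3a gene (rows) that also occur in a transcript of another member (columns), from GENCODE M21; darker cells are higher on a log scale and the diagonal is left blank. Sharing falls into 2 blocks, Cyp3a11 with Cyp3a41a, Cyp3a41b, Cyp3a44 and Cyp3a16, and Cyp3a25 with Cyp3a59 and Cyp3a57, while Cyp3a13 shares 0.0% with each.

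The bases just upstream of the starts fall into the same blocks as the shared transcript windows. Cyp3a16, Cyp3a41a and Cyp3a44, and likewise Cyp3a25 and Cyp3a59, moved in like directions in several of the comparisons below. The part of these bases, or of shared reads, in that was not tested. Printed are the 250 bases before each RefSeq start (GRCm38.p6, read 5′ to 3′ on the gene's strand). Capitals mark nuclear receptor half-sites written AGNTCA, on either strand (TGANCT on the opposite one), letters that 41.19% of 27025 promoters of the same length hold at least once.
Cyp3a11, chr5:145879855-145880104, minus strand: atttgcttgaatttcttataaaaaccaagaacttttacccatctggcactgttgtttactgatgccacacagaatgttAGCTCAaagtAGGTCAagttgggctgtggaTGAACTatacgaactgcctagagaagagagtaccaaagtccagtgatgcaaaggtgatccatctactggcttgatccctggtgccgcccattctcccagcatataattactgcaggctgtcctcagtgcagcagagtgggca
Cyp3a16, chr5:145469724-145469973, minus strand: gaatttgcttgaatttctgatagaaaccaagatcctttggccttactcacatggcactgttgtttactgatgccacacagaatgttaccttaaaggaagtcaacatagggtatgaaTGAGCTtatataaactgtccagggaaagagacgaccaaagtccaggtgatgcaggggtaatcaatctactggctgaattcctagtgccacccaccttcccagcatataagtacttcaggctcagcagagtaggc
Cyp3a41a, chr5:145720137-145720386, minus strand: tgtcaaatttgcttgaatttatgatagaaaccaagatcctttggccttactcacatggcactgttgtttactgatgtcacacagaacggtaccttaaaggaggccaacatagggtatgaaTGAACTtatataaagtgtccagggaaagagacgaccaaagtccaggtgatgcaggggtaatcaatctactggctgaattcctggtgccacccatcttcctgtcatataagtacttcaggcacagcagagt
Cyp3a44, chr5:145805875-145806124, minus strand: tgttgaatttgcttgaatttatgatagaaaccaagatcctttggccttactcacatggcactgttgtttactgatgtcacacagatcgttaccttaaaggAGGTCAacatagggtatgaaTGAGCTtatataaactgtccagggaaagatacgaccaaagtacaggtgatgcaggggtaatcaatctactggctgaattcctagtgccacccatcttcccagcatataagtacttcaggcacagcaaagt
Cyp3a25, chr5:146009619-146009868, minus strand: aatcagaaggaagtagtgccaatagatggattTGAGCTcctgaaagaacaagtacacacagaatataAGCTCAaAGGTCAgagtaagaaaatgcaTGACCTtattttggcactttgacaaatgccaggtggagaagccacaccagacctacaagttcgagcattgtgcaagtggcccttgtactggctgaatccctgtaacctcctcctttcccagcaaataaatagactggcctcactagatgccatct
Cyp3a59, chr5:146079008-146079257, plus strand: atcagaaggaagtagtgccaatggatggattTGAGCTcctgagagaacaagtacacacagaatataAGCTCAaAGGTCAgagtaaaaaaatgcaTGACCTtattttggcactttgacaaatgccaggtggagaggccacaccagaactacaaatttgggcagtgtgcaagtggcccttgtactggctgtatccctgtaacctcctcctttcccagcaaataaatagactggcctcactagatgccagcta
Cyp3a13, chr5:137921620-137921869, minus strand: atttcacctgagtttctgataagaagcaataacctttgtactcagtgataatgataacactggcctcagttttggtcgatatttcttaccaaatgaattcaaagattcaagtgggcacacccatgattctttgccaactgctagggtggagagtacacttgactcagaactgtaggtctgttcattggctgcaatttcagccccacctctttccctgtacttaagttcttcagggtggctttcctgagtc

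Cyp3a16, Cyp3a41a and Cyp3a44 were 90.9% to 94.4% identical to one another over these bases and 71.7% to 76.2% identical to Cyp3a11. Cyp3a25 and Cyp3a59 were 94.8% identical, and Cyp3a25 and Cyp3a11 50.5%. Cyp3a11 was the one member with a direct repeat of the half-site spaced by 4 bases, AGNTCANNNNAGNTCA, at -172 to -157 from the start, letters found in 0.11% of all promoters and made of 2 of the half-sites in capitals. Cyp3a25, Cyp3a57 and Cyp3a59 each held a direct repeat spaced by 1 base, AGNTCANAGNTCA, which 0.17% of all promoters hold and which is likewise made of 2 half-sites. No member held the repeat spaced by 3, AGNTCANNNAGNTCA (0.06% of promoters), or the everted repeat spaced by 6, TGANCTNNNNNNAGNTCA (0.04%), in this window. Cyp3a13 held no half-site there. Such matches describe these letters and this window only.

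Libraries had FPKM totals of 446595 to 502458, and their relative depth, from the deposited intervals of 4235 genes, was 0.851 to 1.085 of the median; the absolute depth is unknown. The deposited interval of Cyp3a11 reached a median of 0.42% to either side of its value, that of Cyp3a57 35.9%. Albumin (Alb, a hepatocyte gene) was at 10579 FPKM or more throughout, Xist was at most 0.0164 FPKM and the Y-linked Ddx3y at least 3.28 FPKM. Every library thus had the pattern of male tissue in these 2 genes, though the labels do not name the sex. Replicate 3 of the hCAR-TG day 5 corn oil group stood apart: its root mean square deviation from its group was 0.26 in log2 units, against 0.098 to 0.18 in the other libraries. Of the newborn libraries, 3 held over 50 FPKM of summed pancreatic acinar markers (replicate 2 of the wild type corn oil and TCPOBOP groups and replicate 1 of the CITCO group). Member calls that are lost or gained without these libraries are given both ways.

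Cyp3a11 was the most abundant member in every group, at 37.9% of the summed family FPKM in hCAR-TG newborns on corn oil (SD 0.694, n = 3) and 87.6% in hCAR-TG adults on CITCO (SD 0.537, n = 3). All members but Cyp3a57 reached 1 FPKM in 24 of 24 libraries. Cyp3a57 did so in only 4, all from wild type adults: every TCPOBOP library and replicate 3 on corn oil. It entered the tests through them, so its calls are weaker evidence than the rest. Summed over members, the family went from 821 ± 111 FPKM (mean ± SD, n = 3) in wild type newborns on corn oil to 15785 ± 1292 in wild type adults on TCPOBOP, where it made up 3.06% to 3.57% of all FPKM in a library.

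**Figure D2:**
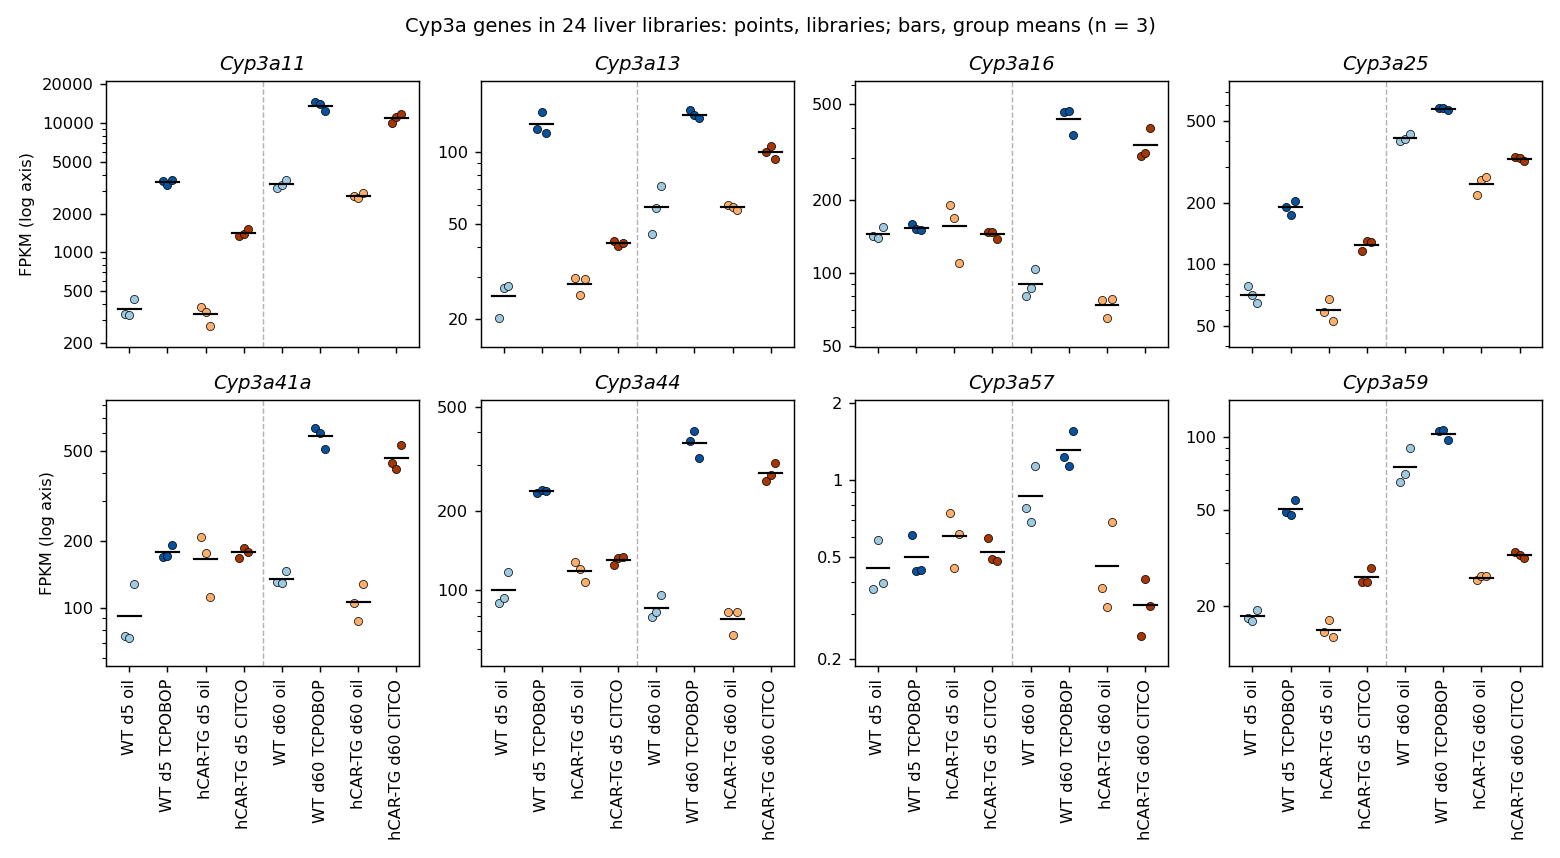
FPKM of each Cyp3a gene (log axis, a separate range per panel) in the 8 groups; points are libraries, horizontal bars are means of 3, and the dashed line divides day 5 from day 60. Cyp3a11, Cyp3a13, Cyp3a25 and Cyp3a59 are higher in adults than in newborns on corn oil, Cyp3a16 is lower, and in Cyp3a16 and Cyp3a41a the ligand groups stand clear of all others at day 60 only.

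In the day 5 wild type response to TCPOBOP, 6 of 8 members rose and none fell by the test (limma on log2(FPKM + 1), Benjamini-Hochberg adjusted p under 0.05 over 12282 genes), where 35.9% of all genes tested were called in either direction and 24.6% were called higher. In wild type adults 8 of 8 rose (7 without Cyp3a57), beside 47.2% of all genes called and 31.4% called higher. Cyp3a57 passed the filter only through the TCPOBOP group of this comparison, so its rise is not independent of the filter. In hCAR-TG newborns given CITCO 4 of 8 rose, beside 17.1% called and 8.27% called higher, and in hCAR-TG adults 7 of 8 rose, beside 8.37% called and 4.4% called higher. The members' median log2 change was 1.33, 1.65, 0.35 and 1.30 in these 4 comparisons, and that of all genes 0.04, 0.06, 0.01 and -0.00. Which members rose differed: Cyp3a11, Cyp3a13, Cyp3a25 and Cyp3a59 were called in all 4 comparisons, while Cyp3a16 was called in adults alone; the tests of these differences follow gene by gene.

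Cyp3a11 in wild type newborns on corn oil measured 337, 331 and 437 FPKM in replicates 1 to 3, and with TCPOBOP 3536, 3300 and 3650 FPKM. The groups were far apart, with a ratio of means of 9.48 and a log2 change of 3.25 ± 0.11 (± SE; limma adjusted p = 5.05e-15). In wild type adults it went from 3161, 3307 and 3634 FPKM to 14430, 13999 and 12310 (2.01 ± 0.11, limma adjusted p = 5.60e-12). Newborns on TCPOBOP thus reached the range of adults on corn oil, and these groups overlapped.

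In hCAR-TG newborns Cyp3a11 was at 379, 344 and 271 FPKM on corn oil and at 1331, 1377 and 1505 on CITCO (2.09 ± 0.11, limma adjusted p = 8.10e-11). hCAR-TG adults had 2742, 2624 and 2855 FPKM on corn oil and 10042, 11051 and 11827 on CITCO (1.999 ± 0.11, limma adjusted p = 1.27e-10). Every CITCO library lay above every corn oil library of its age. The newborn response was smaller by 1.16 ± 0.16 log2 units in the hCAR-TG and CITCO pair than in the wild type and TCPOBOP pair (limma adjusted p = 1.78e-05). The adult responses of the pairs differed by -0.01 ± 0.16 (95% interval -0.345 to 0.322), a difference not called, and by 0.11 ± 0.16 after rescaling by median of ratios. Across ages, the wild type response was 1.24 ± 0.16 smaller at day 60 (limma adjusted p = 5.99e-06), and in hCAR-TG mice the difference was -0.09 ± 0.16 (95% interval -0.43 to 0.24, not called). Without the replicate that stood apart it was 0.05 ± 0.14; with the number that closes the read file names as a factor it was -0.50 ± 0.18 and called (adjusted p = 0.0447).

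From low to high, the groups' Cyp3a11 means ran hCAR-TG day 5 corn oil, wild type day 5 corn oil, hCAR-TG day 5 CITCO, hCAR-TG day 60 corn oil, wild type day 60 corn oil, wild type day 5 TCPOBOP, hCAR-TG day 60 CITCO and wild type day 60 TCPOBOP. Neighbours overlapped at the first step and between wild type day 60 corn oil and wild type day 5 TCPOBOP, and were separate at the other steps.

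Cyp3a16, the perinatal form, did not move with TCPOBOP in wild type newborns beyond the spread of its libraries: it measured 142, 139 and 155 FPKM on corn oil and 160, 152 and 151 on TCPOBOP (0.09 ± 0.15, 95% interval -0.23 to 0.41, limma adjusted p = 0.696). In wild type adults it rose from 80.1, 87.1 and 104 to 466, 471 and 371 FPKM, without overlap (2.26 ± 0.15, limma adjusted p = 1.33e-10). In hCAR-TG newborns it was at 191, 169 and 110 FPKM on corn oil and 148, 148 and 139 on CITCO (-0.07 ± 0.15, limma adjusted p = 0.781), with the groups overlapping. hCAR-TG adults went from 77.5, 65.3 and 78.2 to 306, 315 and 400 FPKM (2.19 ± 0.15, limma adjusted p = 4.47e-09). The adult response exceeded the newborn one by 2.17 ± 0.22 in wild type and 2.26 ± 0.22 in hCAR-TG mice (limma adjusted p = 2.31e-07 and 1.42e-06).

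Cyp3a41a (the sum of Cyp3a41a and Cyp3a41b) rose in wild type newborns from 75.2, 73.7 and 128 FPKM to 169, 171 and 192 (0.98 ± 0.20, limma adjusted p = 0.000645). In wild type adults it rose from 131, 129 and 146 to 633, 605 and 510 FPKM (2.09 ± 0.20, limma adjusted p = 3.36e-08). hCAR-TG newborns had 207, 176 and 112 FPKM on corn oil and 168, 186 and 178 on CITCO, values that overlapped and were not called (0.15 ± 0.20, limma adjusted p = 0.64). In hCAR-TG adults it rose from 106, 87.5 and 128 to 443, 416 and 534 FPKM (2.12 ± 0.20, limma adjusted p = 5.72e-07). The adult response was the larger one, by 1.11 ± 0.28 in wild type and 1.97 ± 0.28 in hCAR-TG mice (limma adjusted p = 0.0066 and 0.000202).

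Cyp3a44 in wild type newborns rose from 89.96, 93.8 and 117 FPKM to 235, 241 and 239 (1.25 ± 0.11, limma adjusted p = 8.49e-09), and in wild type adults from 79.4, 82.9 and 95.7 to 370, 403 and 317 (2.06 ± 0.11, limma adjusted p = 1.42e-12). In hCAR-TG newborns it measured 128, 120 and 108 FPKM on corn oil and 125, 132 and 134 on CITCO (0.13 ± 0.11, limma adjusted p = 0.393), so the groups overlapped. In hCAR-TG adults it rose from 82.7, 67.6 and 82.4 to 262, 275 and 305 FPKM (1.84 ± 0.11, limma adjusted p = 1.36e-10). Its response was larger in adults by 0.81 ± 0.15 and 1.71 ± 0.15 in the 2 genotypes (limma adjusted p = 0.000383 and 3.45e-07).

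The low corn oil values of Cyp3a16 and Cyp3a41a in hCAR-TG newborns came from the replicate that stood apart, and the newborn response there moved with it. Without that library Cyp3a41a gave -0.10 ± 0.19 and stayed uncalled. With the number that closes the read file names as a factor, which sets the 3 CITCO libraries against that library alone, Cyp3a16 became 0.40 ± 0.14 (limma adjusted p = 0.0273) and Cyp3a41a 0.65 ± 0.25 (limma adjusted p = 0.0473), and Cyp3a13 lost its call (0.49 ± 0.19, limma adjusted p = 0.0516). Cyp3a11 within that number was 2.37 higher with CITCO.

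Set against Cyp3a11, these 3 close relatives behaved differently at the 2 ages. Over the 12 adult libraries Cyp3a11 spanned a 5.50-fold range, yet Cyp3a44 kept between 2.49% and 3.02% of its FPKM, Cyp3a16 between 2.49% and 3.38%, and Cyp3a41a between 3.33% and 4.52%. In the 6 newborn libraries on corn oil the same percentages were 26.7% to 39.9% for Cyp3a44, 35.4% to 50.3% for Cyp3a16 and 22.2% to 54.4% for Cyp3a41a. In the 6 newborn ligand libraries they were 6.56% to 9.61%, 4.14% to 11.1% and 4.77% to 13.5%. Cyp3a25 did not hold a fixed proportion in adults, ranging from 2.71% to 12.7% of Cyp3a11. The adult levels of the 3 relatives, all sharing some sequence with Cyp3a11, moved with Cyp3a11; the part of shared reads in this was not tested.

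**Figure D3:**
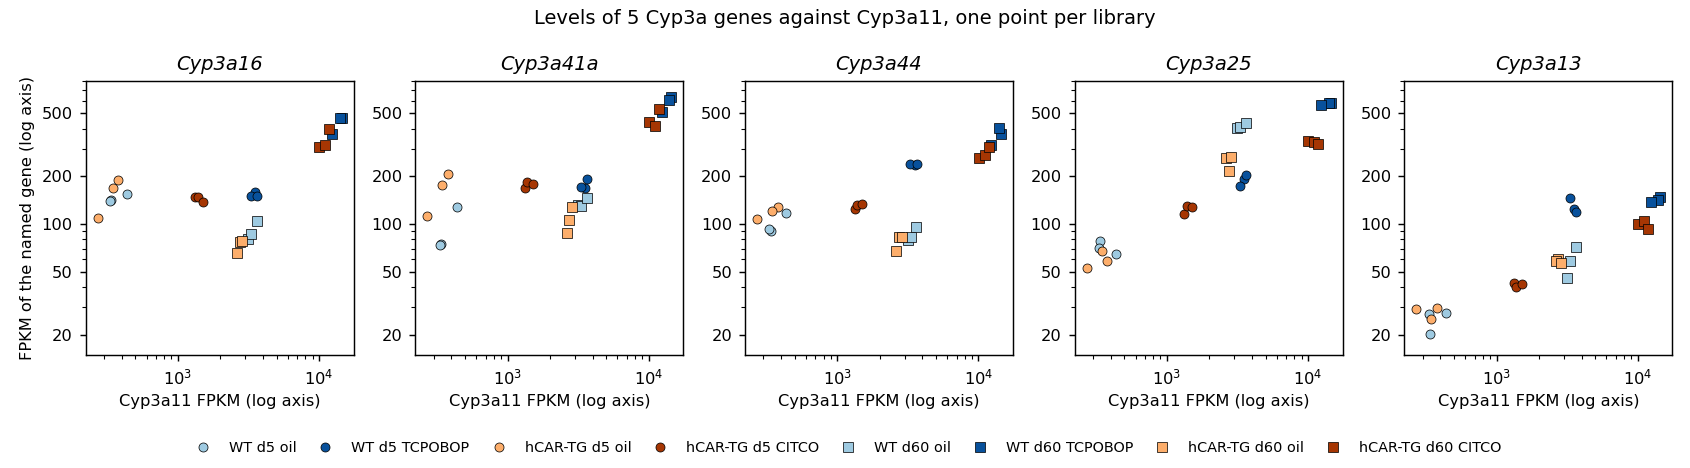
FPKM of 5 Cyp3a genes against Cyp3a11 FPKM (both log axes), with circles for day 5, squares for day 60, light colours for corn oil and dark colours for the ligand; each point is a library. The adult squares of Cyp3a16, Cyp3a41a and Cyp3a44 rise along with Cyp3a11, whereas the newborn circles lie above the course of the squares.

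Summing these relatives before the fit, which removes the uncertainty among them, gave the same picture. Cyp3a16, Cyp3a41a, Cyp3a41b and Cyp3a44 together rose by 0.76 ± 0.14 in wild type newborns, 2.14 ± 0.14 in wild type adults and 2.07 ± 0.14 in hCAR-TG adults (limma adjusted p = 0.000264, 1.09e-10 and 3.99e-09), and were not called in hCAR-TG newborns (0.07 ± 0.14, limma adjusted p = 0.784). With Cyp3a11 added to that sum the responses were 2.53 ± 0.12 and 2.02 ± 0.12 in wild type newborns and adults, and 1.29 ± 0.12 and 2.01 ± 0.12 in hCAR-TG newborns and adults. On that sum the hCAR-TG response was larger in adults by 0.72 ± 0.17 (limma adjusted p = 0.0108), where Cyp3a11 alone showed no called difference. The wild type response at day 60 minus that at day 5 was -0.51 ± 0.17 on that sum (limma adjusted p = 0.0348). For Cyp3a11 alone it was -1.24 ± 0.16.

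Cyp3a25, an adult liver form, responded more in newborns than in adults. It rose in wild type newborns from 78.0, 70.6 and 64.8 FPKM to 192, 174 and 204 (1.40 ± 0.09, limma adjusted p = 8.26e-11), and in wild type adults from 401, 411 and 434 to 582, 579 and 568 (0.47 ± 0.09, limma adjusted p = 0.000148). In hCAR-TG newborns the values were 58.2, 67.5 and 53.1 on corn oil and 116, 129 and 129 FPKM on CITCO (1.06 ± 0.09, limma adjusted p = 5.38e-08), and in hCAR-TG adults 218, 260 and 267 against 335, 331 and 321 (0.41 ± 0.09, limma adjusted p = 0.00511). No ligand library overlapped its corn oil group. The adult response was smaller by 0.93 ± 0.13 in wild type and 0.65 ± 0.13 in hCAR-TG mice (limma adjusted p = 1.08e-05 and 0.0027), which is the opposite direction to Cyp3a16, Cyp3a41a and Cyp3a44.

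Cyp3a59, the neighbour of Cyp3a25 and its closest relative, rose in wild type newborns from 17.8, 17.4 and 19.4 FPKM to 48.8, 47.4 and 54.8 (1.42 ± 0.09, limma adjusted p = 9.84e-11). In wild type adults it went from 65.2, 70.3 and 89.3 to 105, 107 and 96.7 FPKM (0.46 ± 0.09, limma adjusted p = 0.000233). In hCAR-TG newborns it went from 15.6, 17.5 and 14.96 to 25.2, 25.1 and 28.8 FPKM (0.69 ± 0.09, limma adjusted p = 2.96e-05). hCAR-TG adults had 25.6, 26.5 and 26.5 FPKM on corn oil and 33.3, 32.4 and 31.5 on CITCO, separate but close, and the call (0.29 ± 0.09, limma adjusted p = 0.0487) was lost when any library of either group was left out (adjusted p = 0.0841 to 0.152), when no filter was used (adjusted p = 0.0765), without the newborn libraries with pancreatic transcripts (adjusted p = 0.0700) or with the read file number as a factor (adjusted p = 0.174). The wild type response was smaller in adults by 0.96 ± 0.13 (limma adjusted p = 1.03e-05), and the hCAR-TG one by 0.39 ± 0.13, which was not called (limma adjusted p = 0.0572). That difference was called with a filter at 5 FPKM (adjusted p = 0.049), in the fit of the compared groups alone (adjusted p = 0.0362) and without newborn corn oil replicate 2 (adjusted p = 0.0323).

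The proportion of Cyp3a59 to Cyp3a25 differed between the groups. Cyp3a59 was at 22.9%, 24.7% and 29.9% of the Cyp3a25 FPKM in wild type newborns on corn oil and at 26.8%, 25.9% and 28.2% in the matching hCAR-TG newborns. In adults on corn oil it was at 16.2%, 17.1% and 20.6% in wild type and at 11.8%, 10.2% and 9.95% in hCAR-TG mice. The adult genotypes did not overlap, and TCPOBOP or CITCO left the adult means close to these, at 17.8% and 9.85%. In wild type newborns on TCPOBOP it was at 25.5%, 27.2% and 26.9%, within the corn oil range. In hCAR-TG newborns on CITCO it was at 21.8%, 19.4% and 22.3%, below every corn oil library.

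Cyp3a57, the third gene of this block, was near the floor. Its values ran from 0.247 to 0.744 FPKM in all newborn and hCAR-TG libraries and from 0.683 to 1.56 FPKM in wild type adults. In wild type adults it went from 0.777, 0.683 and 1.13 on corn oil to 1.23, 1.13 and 1.56 FPKM on TCPOBOP (0.31 ± 0.10, limma adjusted p = 0.0164). The highest corn oil library was at 1.128 and the lowest TCPOBOP library at 1.132. Because the TCPOBOP libraries brought the gene past the filter, this rise is not independent of that selection. The call was lost with a pseudocount of 0.1 (0.56 ± 0.24, adjusted p = 0.0547), with the read file number as a factor (adjusted p = 0.0933) and without replicate 1 or 2 of the corn oil group or replicate 3 of the TCPOBOP group (adjusted p = 0.0562, 0.0934 and 0.097). In the other treatment comparisons it changed by -0.13 to 0.05 and was not called.

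Cyp3a13, which is also expressed in the intestine and lies outside the cluster, could be read without shared windows. It rose in wild type newborns from 20.1, 27.0 and 27.5 FPKM to 124, 146 and 120 (2.35 ± 0.13, limma adjusted p = 7.04e-12) and in wild type adults from 45.4, 58.1 and 72.0 to 149, 142 and 138 (1.30 ± 0.13, limma adjusted p = 2.70e-08). In hCAR-TG newborns it went from 29.7, 25.2 and 29.3 to 42.3, 40.4 and 41.6 FPKM (0.55 ± 0.13, limma adjusted p = 0.00499), and in hCAR-TG adults from 59.9, 58.8 and 57.2 to 100.04, 105 and 93.1 (0.75 ± 0.13, limma adjusted p = 0.000543). All 4 comparisons had separate groups. Summed FPKM of 10 intestinal epithelium markers lay at 22.3 to 128 over all libraries, with 4 to 6 of the 10 at 0 throughout each adult group. In wild type newborns the sum was 70.2 to 83.8 on corn oil and 89.3 to 128 on TCPOBOP. Of the 6 tested markers 1 rose and 1 fell there, beside 24.6% and 11.3% of all genes. In hCAR-TG newborns the sum was 79.9 to 123 on corn oil and 63.3 to 71.4 on CITCO. There 4 of the 6 fell and 0 rose, beside 8.82% of all genes called lower and 8.27% called higher. In adults of both genotypes the sum was lower with the ligand. The part of these markers in the Cyp3a13 values was not tested.

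Among the 8 members, Cyp3a13 had the largest estimated difference between the receptor and ligand pairs at both ages: in newborns it was smaller by 1.80 ± 0.18 with CITCO in hCAR-TG mice than with TCPOBOP in wild type mice (limma adjusted p = 2.96e-07), and in adults by 0.55 ± 0.18 (limma adjusted p = 0.0211). The adult difference lost its call after rescaling by median of ratios (-0.43 ± 0.18, adjusted p = 0.074), with the read file number as a factor (adjusted p = 0.0892), and without wild type corn oil replicate 1 (-0.38 ± 0.15, adjusted p = 0.0632) or CITCO replicate 3 (adjusted p = 0.0516). In wild type mice the adult response was smaller than the newborn one by 1.05 ± 0.18 (limma adjusted p = 0.000148).

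**Figure D4:**
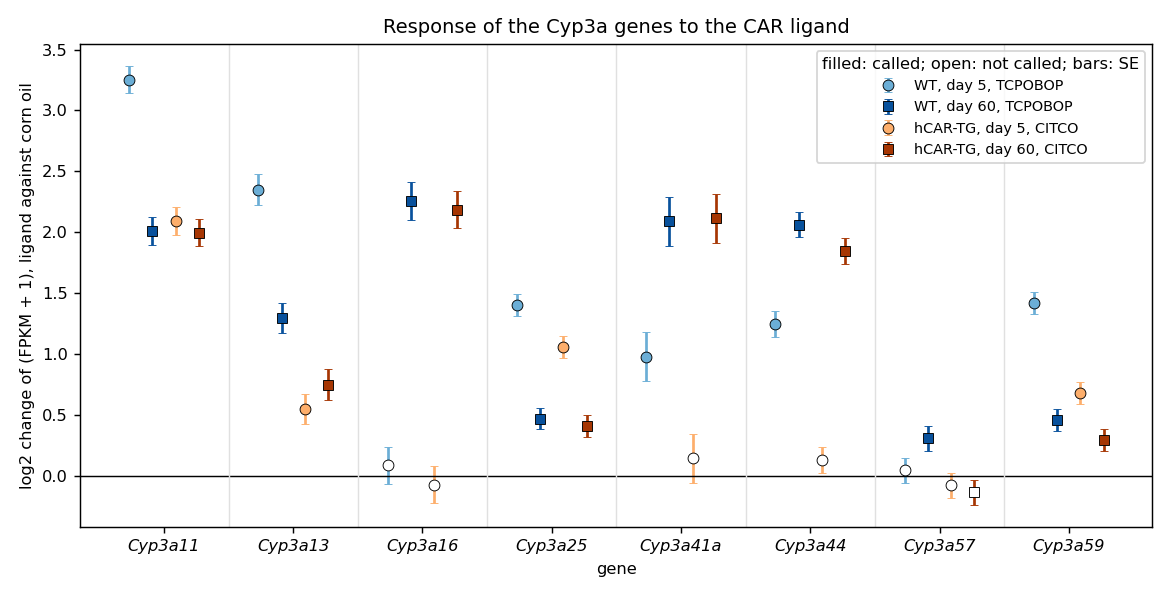
Log2 change of (FPKM + 1) with the ligand against corn oil for each Cyp3a gene, with its SE from the limma fit (n = 3 per group); circles are day 5, squares day 60, blue wild type with TCPOBOP and orange hCAR-TG with CITCO, and open symbols mark changes that were not called. Cyp3a16, Cyp3a41a and Cyp3a44 have higher squares than circles, Cyp3a25 and Cyp3a59 the reverse.

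Counted over the family, the wild type response was larger at day 60 than at day 5 for 3 members and smaller for 4, of 8. Of all genes, 23.4% were called, 13.7% with a positive difference (day 60 minus day 5) and 9.76% with a negative one. For genes that fell with the ligand, a positive difference does not mean a larger response. In hCAR-TG mice the response was larger for 3 (the same genes, Cyp3a16, Cyp3a41a and Cyp3a44) and smaller for 1 (Cyp3a25). There 9.99% of all genes were called, 5.37% with a positive difference and 4.62% with a negative one. Between the receptor and ligand pairs, 6 of 8 members responded less in hCAR-TG newborns with CITCO and none more, beside 33.7% of all genes called and 22.2% called lower. These were Cyp3a11, Cyp3a13, Cyp3a44 (smaller by 1.12 ± 0.15), Cyp3a59 (by 0.73 ± 0.13), Cyp3a41a (by 0.83 ± 0.28, limma adjusted p = 0.0298) and Cyp3a25 (by 0.35 ± 0.13, limma adjusted p = 0.0385). The calls of Cyp3a25 and Cyp3a41a were lost in the fit of the compared groups alone (adjusted p = 0.098 and 0.0814) and without the libraries with pancreatic transcripts (adjusted p = 0.0952 and 0.165). The call of Cyp3a25 was also lost after rescaling (adjusted p = 0.0791), with no filter (adjusted p = 0.0534), and without any of wild type corn oil replicate 2 or 3, TCPOBOP replicate 1 or 3, hCAR-TG corn oil replicate 2 or CITCO replicate 1 (adjusted p = 0.0641 to 0.103). That of Cyp3a41a was lost without any of wild type corn oil replicate 1 or 2, TCPOBOP replicate 3, hCAR-TG corn oil replicate 1 or 2, or CITCO replicate 1 or 3 (adjusted p = 0.0505 to 0.0821).

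In adults the pairs differed for Cyp3a13 and, by the test, for Cyp3a57 (smaller by 0.44 ± 0.14, limma adjusted p = 0.0219), 2 of 8 members, or 1 when Cyp3a57 is set aside because it passed the filter only through the wild type adults in this comparison. Both were smaller, beside 33.8% of all genes called and 24.1% called lower. For Cyp3a57 the call was lost with the read file number as a factor (adjusted p = 0.063) and without any of wild type corn oil replicate 2, TCPOBOP replicate 3, hCAR-TG corn oil replicate 3 or CITCO replicate 1 (adjusted p = 0.0589 to 0.0743). The intervals of the 4 members of the Cyp3a11 block were -0.345 to 0.322 for Cyp3a11, -0.52 to 0.38 for Cyp3a16, -0.57 to 0.62 for Cyp3a41a and -0.53 to 0.09 for Cyp3a44, so the fit allows differences of these sizes. Without wild type corn oil replicate 3, Cyp3a59 became called (-0.30 ± 0.11, adjusted p = 0.0384).

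Without ligand, Cyp3a11, Cyp3a13, Cyp3a25 and Cyp3a59 were higher at day 60 in both genotypes and Cyp3a16 was lower. In wild type mice on corn oil 6 of 8 members were higher at day 60 (5 without Cyp3a57) and 1 was lower, where 70.2% of all genes were called, 25.2% higher and 44.9% lower. Cyp3a11 was higher by 3.20 ± 0.11, Cyp3a25 by 2.53 ± 0.09, Cyp3a59 by 1.97 ± 0.09 and Cyp3a13 by 1.19 ± 0.13, while Cyp3a16 was lower (-0.68 ± 0.15, limma adjusted p = 0.000465) and Cyp3a44 was not called (-0.21 ± 0.11). Cyp3a44 passed without newborn replicate 1 or adult replicate 3 (adjusted p = 0.0358 and 0.031). Cyp3a57 was higher by 0.36 ± 0.10. Cyp3a41a was higher by 0.60 ± 0.20 (limma adjusted p = 0.0121), but not without newborn replicate 1 (adjusted p = 0.0651) or 2 (adjusted p = 0.071), nor without the libraries with pancreatic transcripts (adjusted p = 0.0869), nor with the read file number as a factor (0.41 ± 0.41). The sum of Cyp3a16, Cyp3a41a, Cyp3a41b and Cyp3a44 was not called in wild type mice (-0.11 ± 0.14, limma adjusted p = 0.519) and was lower at day 60 in hCAR-TG mice (-0.75 ± 0.14, limma adjusted p = 9.29e-05).

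In hCAR-TG mice on corn oil 4 members were higher at day 60 and 3 lower, where 71.6% of all genes were called, 24.3% higher and 47.3% lower. Cyp3a11 was higher by 3.06 ± 0.11, Cyp3a25 by 2.04 ± 0.09, Cyp3a13 by 1.04 ± 0.13 and Cyp3a59 by 0.68 ± 0.09. Lower were Cyp3a16 (-1.04 ± 0.15, limma adjusted p = 3.70e-06), Cyp3a44 (-0.61 ± 0.11, limma adjusted p = 2.95e-05) and Cyp3a41a (-0.59 ± 0.20, limma adjusted p = 0.0124). The Cyp3a41a groups overlapped, and its call was lost after rescaling (-0.32 ± 0.20, adjusted p = 0.151), in the fit of the compared groups alone (adjusted p = 0.0733) and without newborn replicate 1 (adjusted p = 0.089) or adult replicate 2 (adjusted p = 0.0721). Cyp3a57 was called without adult replicate 3 (-0.25 ± 0.10, adjusted p = 0.0421). Rescaling by median of ratios raised the median of all genes by 0.20 and 0.23 log2 units in these 2 age comparisons. It also turned the uncalled wild type value of Cyp3a44 to 0.03 ± 0.10. Markers of several cell types moved with age. In both genotypes 6 of 6 neutrophil markers were lower at day 60, with summed levels of 297 to 1435 FPKM in newborn corn oil libraries and 5.28 to 21.7 FPKM in adult ones. Likewise lower in both were 6 of 6 Kupffer cell and 4 of 5 endothelial markers. Stellate cell markers were lower in 6 of 6 cases in wild type and 5 of 6 in hCAR-TG mice. Of 4 erythroid markers, 3 were lower and 1 higher in wild type, and 4 were lower in hCAR-TG mice. In bulk tissue, fewer cells of a type and less RNA per cell cannot be told apart, and the part of such cells in the age differences was not tested.

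Between genotypes on corn oil, Cyp3a25 and Cyp3a59 differed in adults. There 2 of 8 members were lower in hCAR-TG mice and none higher, where 4.9% of all genes were called and 1.85% were called lower. Cyp3a59 was at 65.2, 70.3 and 89.3 FPKM in wild type and 25.6, 26.5 and 26.5 in hCAR-TG adults, separate by a wide gap (-1.47 ± 0.09, limma adjusted p = 1.23e-09). Cyp3a25 was at 401, 411 and 434 against 218, 260 and 267 FPKM (-0.75 ± 0.09, limma adjusted p = 1.66e-05). Cyp3a57 missed the threshold (-0.35 ± 0.10, limma adjusted p = 0.0513) and passed it after rescaling (adjusted p = 0.0397), with a pseudocount of 0.1 (-0.81 ± 0.24, adjusted p = 0.047), and without wild type replicate 2 (adjusted p = 0.0469) or hCAR-TG replicate 3 (adjusted p = 0.0133). The 4 members of the Cyp3a11 block lay between -0.35 and -0.15 and were not called. All 3 wild type libraries carried the read file number 1 and all 3 hCAR-TG libraries the number 2. Both numbers occur together only in the wild type adult TCPOBOP group, where replicate 3 alone has number 2. With the number as a factor, an adjustment that rests on that single library, Cyp3a59 was at -1.34 and Cyp3a25 at -0.71. The part of the number in these genotype differences can therefore hardly be told apart.

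At day 5 only Cyp3a41a of 8 members was called between genotypes, where 10.6% of all genes were called and 8.29% were called higher. It was at 75.2, 73.7 and 128 FPKM in wild type and 207, 176 and 112 in hCAR-TG newborns, and the groups overlapped (0.84 ± 0.20, limma adjusted p = 0.00951). The call was lost without wild type replicate 1 or 2 or hCAR-TG replicate 1 (adjusted p = 0.0607, 0.0674 and 0.0538), without the libraries with pancreatic transcripts (adjusted p = 0.0899) and in the fit of the compared groups alone (adjusted p = 0.254). Cyp3a25 passed without wild type replicate 3 or hCAR-TG replicate 2 (adjusted p = 0.0351 and 0.0201), and Cyp3a44 without wild type replicate 3 (adjusted p = 0.0293). Beside this, 6 of 6 neutrophil and 4 of 4 erythroid markers were higher in hCAR-TG newborns, with summed erythroid levels of 2797 to 3834 FPKM in wild type and 6634 to 8695 in hCAR-TG libraries; their part in the Cyp3a41a difference was not tested.

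The number that closes the read file names, whose meaning is not given, divided some groups. Within number 1 the wild type adult changes (2 TCPOBOP against 3 corn oil libraries) were 2.08 for Cyp3a11, 2.37 for Cyp3a16, 2.18 for Cyp3a41a, 2.16 for Cyp3a44, 1.32 for Cyp3a13, 0.48 for Cyp3a25 and 0.51 for Cyp3a59. Within number 2 the hCAR-TG adult changes (1 CITCO against 3 corn oil libraries) were 1.87, 2.04, 2.06, 1.75, 0.76, 0.44 and 0.33 for the same genes in that order. Within number 5 the hCAR-TG newborn changes, against a single corn oil library, were 1.21 for Cyp3a25, 0.77 for Cyp3a59, 0.49 for Cyp3a13 and 0.27 for Cyp3a44. In wild type newborns number and treatment coincide and cannot be told apart. The same holds for comparisons that rest on how those numbers fell among the newborn groups. These are the wild type difference of response between ages, the day 5 pair difference, the day 5 genotype comparison and hCAR-TG age on corn oil. For them no fit with the number as a factor was possible.

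Among genes that act on Cyp3a transcription or serve the enzymes, Por rose in each treatment comparison: from 113, 106 and 98.5 FPKM to 424, 503 and 450 in wild type newborns (2.11 ± 0.15, limma adjusted p = 8.32e-10), by 2.69 ± 0.15 in wild type adults, by 0.75 ± 0.15 in hCAR-TG newborns (limma adjusted p = 0.00218; not called with the read file number as a factor, 0.33, adjusted p = 0.153, or in the fit of the compared groups alone, adjusted p = 0.0799) and by 2.12 ± 0.15 in hCAR-TG adults. Its response was larger in hCAR-TG adults than newborns by 1.38 ± 0.21 (limma adjusted p = 0.000395). For the lists that follow, the shares of all genes called higher and lower were 24.6% and 11.3% in wild type newborns, 31.4% and 15.8% in wild type adults, 8.27% and 8.82% in hCAR-TG newborns, and 4.4% and 3.97% in hCAR-TG adults. Of 13 genes of P450 electron supply and haem synthesis, 7 rose and 1 fell in wild type newborns, 8 and 2 in wild type adults, 5 and 1 in hCAR-TG newborns, and 3 and 2 in hCAR-TG adults. Cyb5a, the cytochrome b5 that passes electrons to P450 enzymes, rose in each (0.81 ± 0.07, 1.30 ± 0.07, 0.58 ± 0.07 and 0.70 ± 0.07). Cpox, an enzyme of haem synthesis, fell in wild type newborns (-0.63 ± 0.08) and adults (-1.38 ± 0.08). The median changes of this list were 0.48, 0.35, -0.06 and 0.04.

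Nr1i3, which encodes CAR, measured 68.6, 61.6 and 43.8 FPKM in wild type newborns on corn oil and 13.5, 17.9 and 15.6 on TCPOBOP, a fall of -1.81 ± 0.18 (limma adjusted p = 1.33e-07), and in wild type adults it fell by 1.59 ± 0.18. In hCAR-TG mice the entry was lower than in wild type mice on corn oil (-1.34 ± 0.18 at day 5 and -2.83 ± 0.18 at day 60); whether reads of the human gene are counted there is not known, so these values do not measure the human receptor. Nr1i2, which encodes PXR, was at 17.3 to 31.9 FPKM in all libraries and rose by 0.50 ± 0.11 in wild type adults (limma adjusted p = 0.000796). In the other 3 treatment comparisons it gave 0.23 ± 0.11, 0.30 ± 0.11 and 0.32 ± 0.11, which were not called (limma adjusted p = 0.108, 0.0614 and 0.0842). In hCAR-TG newborns it was called without the replicate that stood apart (0.48, adjusted p = 0.00102) and was at -0.04 ± 0.12 with the read file number as a factor (adjusted p = 0.827), and it was called in hCAR-TG adults in the fit of the compared groups alone (adjusted p = 0.0182). Of 21 tested regulators of CYP3A transcription, 2 rose and 5 fell in wild type newborns, 2 and 9 in wild type adults, 0 and 1 in hCAR-TG newborns, and 4 and 1 in hCAR-TG adults, with medians of -0.07, -0.19, 0.02 and 0.12. In wild type mice 7 and 11 of the 21 were called in either direction, where 35.9% and 47.2% of all genes were. Among those that fell in wild type newborns and adults were the liver factor Cebpa (-0.87 ± 0.12 and -0.78 ± 0.12) and Ppara, the receptor of fatty acid oxidation (-0.998 ± 0.13 and -1.67 ± 0.13). In hCAR-TG adults Hnf4a, a central hepatocyte factor, rose by 0.30 ± 0.07, but not without corn oil replicate 3 or CITCO replicate 1 (adjusted p = 0.0601 and 0.0591), and in wild type adults it changed by -0.33 ± 0.07. Nfil3, Tef and Dbp were also called in hCAR-TG adults. With the read file number as a factor, which leaves 1 CITCO library beside the corn oil group, they gave -0.85, 0.89 and 1.53. The call of Dbp was lost without CITCO replicate 3 (limma adjusted p = 0.0603).

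Known PXR and CAR targets outside the family rose in 22 of 22 cases in wild type newborns and adults and in 17 of 22 in hCAR-TG newborns and adults, and none fell, with medians of 3.20, 2.41, 1.29 and 0.99. Their response was smaller in the hCAR-TG and CITCO pair for 18 of 22 at day 5 and 20 of 22 at day 60. Of all genes, 22.2% and 24.1% were called lower in these 2 comparisons. The Cyp3a counts were 6 and 2 of 8, the second near the share of all genes. That second count includes Cyp3a57, which passed the filter only through wild type adults. Gstm3, a glutathione transferase, changed by 7.56 ± 0.14 in wild type adults and 3.98 ± 0.14 in hCAR-TG adults, whereas Cyp3a11 changed by 2.01 and 1.999. In the 11 tested genes of adult female-biased expression, a group known to include the Cyp3a41 and Cyp3a44 genes (which were not in the list), 6 rose and 1 fell in wild type newborns, 10 and 1 in wild type adults, 4 and 0 in hCAR-TG newborns, and 2 and 0 in hCAR-TG adults. Cyp2b13, a female-biased P450, rose by 2.41 ± 0.19, 5.81 ± 0.19, 0.88 ± 0.19 and 2.35 ± 0.19, the hCAR-TG newborn call being lost with a pseudocount of 0.1 (adjusted p = 0.0934). Of 15 male-biased genes, 10 fell and 1 rose in wild type adults, among them Slco1a1 (-4.04 ± 0.21), a bile acid and steroid uptake transporter, while 3 rose and 3 fell in hCAR-TG adults. In newborns 5 rose and 1 fell in wild type and 1 rose and 1 fell in hCAR-TG mice.

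Growth hormone signalling genes (11 tested), which set sex-biased liver expression, fell in 5 cases and rose in none in wild type newborns, 6 and 1 in wild type adults, 2 and 0 in hCAR-TG newborns, and 2 and 1 in hCAR-TG adults. The shares of all genes called lower were 11.3%, 15.8%, 8.82% and 3.97%, and the list's medians were -0.26, -0.47, -0.04 and -0.14. Ghr, the growth hormone receptor gene, changed by -0.75 ± 0.16 and -1.32 ± 0.16 in wild type newborns and adults. Of 9 tested fetal liver genes, 5 fell and 1 rose in wild type newborns and 6 fell and 1 rose in hCAR-TG newborns, while Cyp3a16, the perinatal form, was at 0.09 and -0.07 there. Afp, the fetal albumin relative, fell by 1.19 ± 0.14 and 0.59 ± 0.14, the second being lost with a pseudocount of 0.1 (adjusted p = 0.0643) and in the fit of the compared groups alone (adjusted p = 0.0848). In adults 2 of these genes rose and none fell in each genotype. Markers of hepatocytes were lower with TCPOBOP in wild type adults (5 of 7, summed level 44005 to 52781 FPKM on corn oil and 26656 to 28998 with TCPOBOP), so the Cyp3a rises there went along with a fall of these genes. Among markers of other cells, 4 of 6 stellate cell genes fell and 3 of 6 Kupffer cell genes rose in wild type newborns. In hCAR-TG newborns 3 of 5 endothelial and 3 of 6 neutrophil genes fell. In wild type adults 2 of 5 endothelial and 2 of 6 stellate cell genes fell and 1 of each rose, and 2 of 4 erythroid genes fell. In hCAR-TG adults 3 of 6 stellate cell genes fell, and no Kupffer, endothelial, erythroid or neutrophil gene was called. The part of such cells in the Cyp3a responses was not tested.

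The 24 libraries share 8 groups and an age difference, so correlations between members across them are descriptive. Pearson's r of log2(FPKM + 1) was 0.908 between Cyp3a16 and Cyp3a44, 0.897 between Cyp3a16 and Cyp3a41a and 0.893 between Cyp3a41a and Cyp3a44, 0.873 between Cyp3a25 and Cyp3a59, and 0.935 between Cyp3a11 and Cyp3a25, but 0.747, 0.654 and 0.499 between Cyp3a11 and Cyp3a41a, Cyp3a44 and Cyp3a16. Over both ages together, Cyp3a11 thus followed Cyp3a25 and Cyp3a13 (0.909) more closely than the relatives with which it shares windows. Correlations within the 12 adult libraries alone were not computed. Over those libraries the percent of Cyp3a11, a measure of proportion, varied 1.21-fold for Cyp3a44, 1.35-fold for Cyp3a41a and 1.36-fold for Cyp3a16. For Cyp3a13 it varied 2.85-fold and for Cyp3a25 4.68-fold. Cyp3a57 reached 0.674 with Cyp3a59 and 0.459 with Cyp3a25. Outside the family the closest patterns were Nqo2 (0.976) and Gas2 (0.972) for Cyp3a11, Cyp4f15 (0.981) and Abcc3 (0.98) for Cyp3a13, and Aldh1a1 (0.967) and Lactb (0.966) for Cyp3a25. For Cyp3a59 they were Slco1a4 (0.927) and Pdp2 (0.922), for Cyp3a44 Exosc8 (0.945) and Gclm (0.925), for Cyp3a41a Arfgef2 (0.872) and Pkp4 (0.87), for Cyp3a16 Pard3b (0.845) and Ctsz (0.817), and for Cyp3a57 Mbl2 (0.802) and Nucb2 (0.789).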

How the data were processed

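Liver RNA of 24 mouse samples (8 groups of 3) was read from the FPKM tables deposited by the authors. Per the submitters' processing notes the build was mm10; the aligner, quantification tool and annotation are not given in the sources used here. Every entry carries its FPKM with an interval and a status, per the file headers. Entries that share a symbol were summed, and 5 genes with a failed estimate were left out (24339 remained).

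Genes at 1 FPKM or more in at least 3 libraries (12282) were tested on log2(FPKM + 1) with limma 3.58.1 (R 4.3.3; lmFit, eBayes with trend and robust), in one model over all 8 groups (residual df 16). P-values were two-sided and adjusted by Benjamini-Hochberg over all 12282 genes; a call is an adjusted p under 0.05. The fit was tested on simulated data. The 12 comparisons were 4 ligand responses, 4 differences between responses and 4 comparisons of corn oil groups. Coding and promoter identity were computed with Biopython 1.88 from GENCODE M21 and RefSeq. Alternatives were another scaling, pseudocount and filters, a replicate block, the read file number as a factor, summed relatives, fits of the compared groups, and each library left out; 2 were added after seeing the data.

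Members, gene lists and tests were chosen with earlier results of these data known. Named genes are the 8 members, Nr1i3, Nr1i2 and Por, up to 4 called genes per pathway list with the lowest adjusted p, and the 2 genes most correlated with each member; the text prints part of these.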

Additional observations from a re-analysis of the deposited data

Results flagged for a closer look

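These are differences between responses that passed the test of the difference itself (limma, adjusted over all genes). Those between ages in wild type mice and those between the pairs in newborns cannot be told apart from the read file number. For the wild type response at day 60 minus that at day 5 they were -1.24 for Cyp3a11, -1.05 for Cyp3a13, -0.93 for Cyp3a25 and -0.96 for Cyp3a59, and 2.17 for Cyp3a16, 1.11 for Cyp3a41a and 0.81 for Cyp3a44. In hCAR-TG mice the same difference was 2.26 for Cyp3a16, 1.97 for Cyp3a41a, 1.71 for Cyp3a44 and -0.65 for Cyp3a25.

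For the hCAR-TG and CITCO response minus the wild type and TCPOBOP response, the newborn values were -1.16 for Cyp3a11, -1.80 for Cyp3a13, -0.35 for Cyp3a25, -0.83 for Cyp3a41a, -1.12 for Cyp3a44 and -0.73 for Cyp3a59. In adults they were -0.55 for Cyp3a13 and -0.44 for Cyp3a57, which passed the filter only through wild type adults, so that its value is weak evidence. Groups of 3 libraries were not tested for single outlying values.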

How the results depend on the processing

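Counts of all genes called stayed within 1.5 times in 204 refits and moved further in 19; counts of members did so in 183 and 16. With the read file number as a factor, the response in hCAR-TG newborns gave 4793 genes (2099 in the fit reported), that in hCAR-TG adults 461 (1028), the hCAR-TG age difference 3292 (1227) and the day 60 genotype comparison 109 (602); 0 members were called in the day 60 pair difference (2), and the Cyp3a16 response in hCAR-TG newborns turned to 0.40. Fits of the compared groups alone, with fewer samples, gave 596 for the hCAR-TG newborn response, 191 for the day 5 genotype comparison (1297) with 0 members (1), and 230 for the day 60 one. A filter at 5 FPKM, which tests fewer genes, gave 5568 for wild type age on corn oil (8617), 5688 for hCAR-TG age (8788), 817 for the day 5 genotype comparison and 1 member in the day 60 pair difference; rescaling also gave 1 there. Without the 3 libraries with pancreatic transcripts the day 5 pair difference had 2532 (4142) and the day 5 genotype comparison 785, with 0 members.

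Leaving out each replicate gave 1147 to 2633 genes in the hCAR-TG newborn response (1182 and 1147 without CITCO replicates 2 and 3), 814 to 1372 in the hCAR-TG age difference (lowest without newborn CITCO replicate 3), 801 to 1745 in the day 5 genotype comparison (801 without wild type replicate 1 or 2), and 336 to 742 in the day 60 one (361 without wild type replicate 2, 336 without hCAR-TG replicate 1). Members called ranged from 1 to 3 in the day 60 pair difference and from 0 to 3 in the day 5 genotype comparison.

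Same-numbered replicates did not deviate together (correlations from -0.333 to 0.311), and the replicate block left every count of members as it was, with 4343, 5763, 2005 and 976 genes in the 4 ligand responses. Rescaling moved the percent of calls that were higher from 68.6 to 57.6 (wild type newborn response), 66.5 to 52.9 (wild type adult), 53.8 to 66.3 (hCAR-TG age difference), 28.9 to 46.3 (day 60 pair difference), 36 to 54.6 and 33.9 to 54.1 (corn oil ages, wild type and hCAR-TG) and 78.5 to 63.7 (day 5 genotype). Beyond smaller samples and gene sets, the cause was not tested. Absolute depth is unknown and limits Cyp3a57 most.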
